A study of Saccharomyces cerevisiae with 12 samples.

Results

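The 7 genes HIS1 to HIS7 encode the enzymes that make histidine in budding yeast. All 7 were found among the 5574 genes named on the arrays, by taking every probe annotated to one of these symbols and averaging the spots of a gene. They held 9 of the 8832 probes of the array type used for 8 of the 12 arrays, with 2 spots each for HIS4 and HIS7 and 1 spot for each of the others, and 7 probes on each of the other array types. Each array compared a Saccharomyces cerevisiae deletion mutant, strain FY31 (snf2) or strain YPS1 (swi1), with the wild type FY2. The groups were snf2 and swi1 in minimal medium and snf2 and swi1 in the rich medium YPD, with 3 arrays each and every mutant measured against FY2. No label gives the full genotypes, the deletion markers or the composition of the minimal medium.

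Histidine synthesis starts from ATP and phosphoribosyl pyrophosphate (PRPP). HIS1 carries out the first step, which histidine itself inhibits, HIS4 is a multifunctional enzyme that acts early and at the last steps, and HIS6, HIS7, HIS3, HIS5 and HIS2 act between them. The activator Gcn4 raises transcription of these genes when amino acids run short, and Bas1 with Pho2 tie HIS4 to the purine pathway. SNF2 encodes the ATPase of the Snf/Swi nucleosome-remodelling complex and SWI1 another of its subunits. HIS3 is also much used as a marker gene in yeast strains, and HIS4 can be one, which bears on how their values may be read.

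Values are log2 ratios of mutant over wild type after each array was set to a median of 0 over genes. The labels name no dyes, so this direction is likely and not certain, and if the deposited ratio ran the other way every sign given here would be turned. It rests on wild type being channel 2 and on channel 2 over channel 1 being the ratio of the image software ScanAlyze, and the deposited sign was turned accordingly. Of the deleted genes, SNF2 goes against it and SWI1 was mixed. SNF2 before centring read 0.51, 0.85 and 1.07 on replicates 1, 2 and 3 labelled snf2 minimal and -0.20, 0.79 and 0.76 on those labelled snf2 rich, which is higher in the deletion strain on 5 of 6 arrays. SWI1 before centring read 1.49, -0.75 and -0.44 on replicates 1, 2 and 3 labelled swi1 minimal. Replicates 2 and 3 went with the direction used and replicate 1 against it. On those labelled swi1 rich it read -0.42 on replicate 1 and 0.68 on the only spot read on replicate 3. The 2 SWI1 spots of swi1 rich replicate 2 disagreed in sign, at -1.26 and 1.32. Genes known for their dependence on Snf/Swi, looked at after the data were seen, were mixed. SER3, which Snf/Swi represses, stood at 3.79 in snf2 rich and 2.35 in swi1 rich, and PHO84, which needs Snf/Swi, at -3.80 and -3.12, both in the direction used. In minimal medium SER3 stood at 1.52 in both mutants, and PHO84 at -0.95 in snf2 and -0.41 in swi1. INO1, which needs Snf/Swi, stood at -1.08 in snf2 minimal, adjusted p = 0.0345, also in that direction, and passed in no other group. SUC2, which also needs Snf/Swi, stood at 0.58 in snf2 rich and 0.78 in swi1 rich, against it, as did HO at 0.75 in snf2 rich. In minimal medium SUC2 stood at -0.13 and -0.19 and HO at -0.05 and 0.03 in snf2 and swi1, and none passed.

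Tests used replicates 2 and 3 of each group, which share an array type (n = 2 arrays per group, ± is limma's standard error). Replicate 1 lies on other array types and is set beside the tests. Its minimal and rich arrays are of different types, so medium and array type cannot be told apart there. The labels do not say if the arrays of 1 group are separate cultures, so p-values measure the spread between these arrays, which may be technical. Snf2 rich replicate 3 lacked 40.0% of its spots, and snf2 rich replicate 1 was widely spread (standard deviation of its values 1.40, while the other 11 arrays had 0.60 to 0.83).

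In minimal medium HIS4 and HIS1 fell in both mutants, HIS3 fell in snf2, and no HIS gene rose. In snf2 minimal, limma called 3 of 7 members lower at an adjusted p under 0.05, while 29.2% of all genes were called, 16.4% as lower. In swi1 minimal it called 2 of 6 lower, with 28.5% of all genes called and 14.8% lower. The members' median was -0.45 in snf2 minimal and -0.31 in swi1 minimal, where all genes tested had medians of 0.01 and 0.0025. In rich medium the members split. HIS4 stayed below wild type in both mutants, while HIS2 and HIS7 rose in both, HIS5 rose in snf2 and HIS3 rose in swi1. For snf2 rich 3 of 5 members were higher and 2 lower, with 41.7% of all genes called, 19.5% and 22.2% in these directions. For swi1 rich 3 of 6 were higher and 1 lower, with 40.8% of all genes called, 19.1% and 21.7% in these directions.

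**Figure D1:**
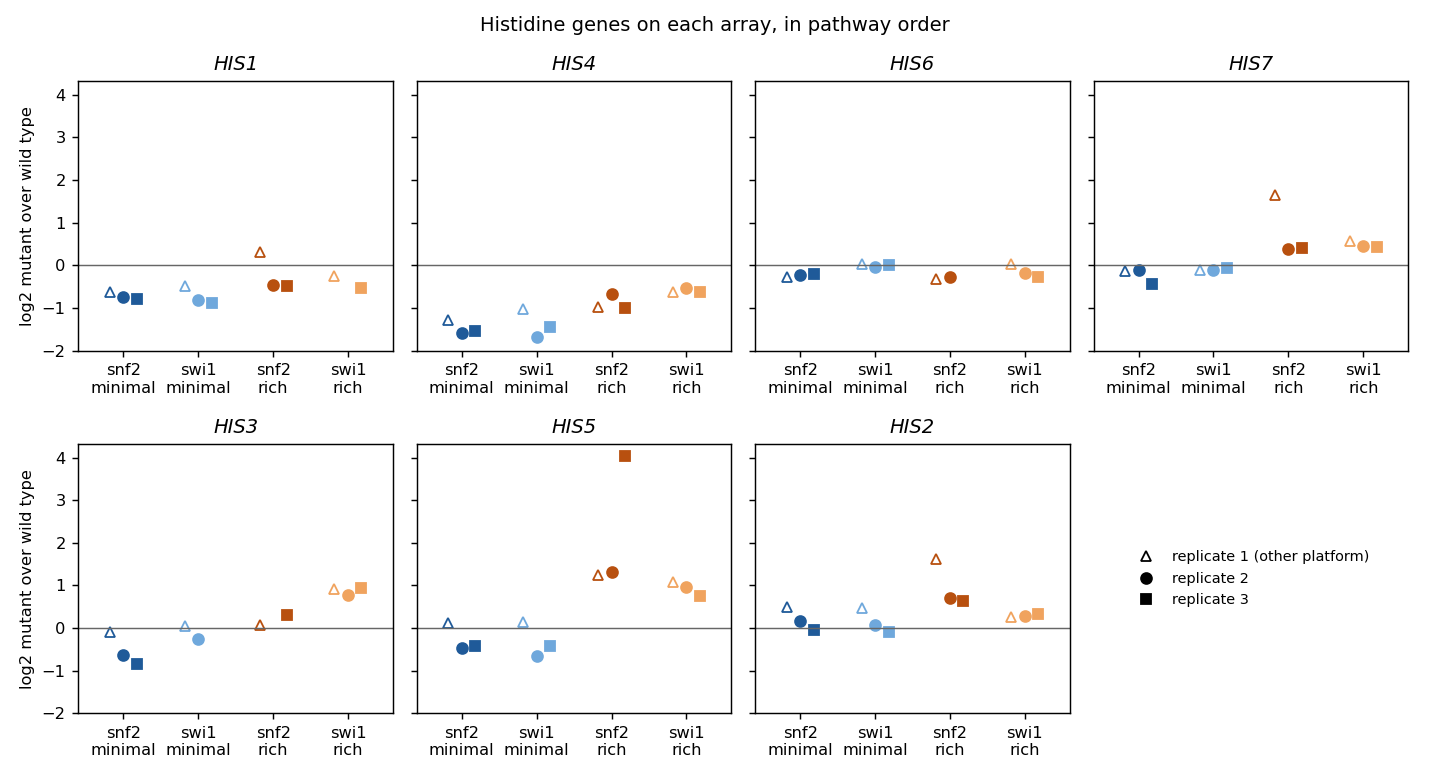
The log2 ratio of mutant over wild type of each histidine gene on each array, in pathway order, with the array median at 0. Triangles are replicate 1 on other array types, circles and squares are replicates 2 and 3. HIS4 lies below 0 on all 12 arrays, from -1.67 to -0.53, and HIS5 reaches 4.04 on snf2 rich replicate 3.

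HIS4 (YCL030C) was the most strongly lowered member. In snf2 minimal it read -1.29, -1.58 and -1.55 on replicates 1, 2 and 3. In swi1 minimal it read -1.02, -1.67 and -1.44. In snf2 rich it read -0.99, -0.66 and -1.01, and in swi1 rich -0.62, -0.53 and -0.63. Every one of the 12 arrays was below 0, as for 11.9% of the 2536 genes measured on all of them, and the 6 minimal arrays lay below the 6 rich arrays without overlap, by a narrow margin (highest minimal -1.02, lowest rich -1.01). HIS4 changed by -1.57 ± 0.11 in snf2 minimal, adjusted p = 9.61e-05, which is 2.96-fold lower in the mutant, and by -1.56 ± 0.11 in swi1 minimal, adjusted p = 0.000109, 2.94-fold lower. It changed by -0.83 ± 0.11 in snf2 rich, adjusted p = 0.00119, 1.78-fold lower, and by -0.58 ± 0.11 in swi1 rich, adjusted p = 0.00592, 1.5-fold lower. Its rank from the bottom fell at 1.96% of genes in snf2 minimal and 1.94% in swi1 minimal. The swi1 rich call was lost without swi1 rich replicate 3 (adjusted p = 0.0682) and with all 12 arrays in 1 fit (adjusted p = 0.0740). The 2 HIS4 spots differed by 0.01 to 0.10 on the 7 arrays where both were read, while the 2 spots of a gene differed by a median of 0.21 to 0.27 over the 8 arrays. On snf2 rich replicate 3 HIS4 rests on 1 spot. The labels do not give the HIS4 genotype of the 3 strains, and a strain difference at HIS4 was not tested.

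HIS1 (YER055C), the ATP phosphoribosyltransferase of the first step, was the next lowest member in minimal medium. In snf2 minimal it read -0.61, -0.74 and -0.79 on replicates 1, 2 and 3, and in swi1 minimal -0.48, -0.81 and -0.88. Its snf2 rich values were 0.31, -0.47 and -0.49, so replicate 1 went against the others there. In swi1 rich it read -0.24 and -0.54 on replicates 1 and 3, with no value on replicate 2, so it was tested only with all 12 arrays (-0.38 ± 0.18, adjusted p = 0.257). HIS1 fell by 0.77 ± 0.09 in snf2 minimal, adjusted p = 0.00168, and by 0.84 ± 0.09 in swi1 minimal, adjusted p = 0.00135. The snf2 rich change was a fall by 0.48 ± 0.09, adjusted p = 0.00739. That call was lost without snf2 rich replicate 2 or 3 (adjusted p = 0.0524 and 0.0583), and with all 12 arrays no HIS1 call passed (adjusted p = 0.0727, 0.0689 and 0.592 in snf2 minimal, swi1 minimal and snf2 rich).

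HIS6 (YIL020C), the isomerase that follows the early HIS4 steps, moved least. Its values on replicates 1, 2 and 3 were -0.26, -0.22 and -0.20 in snf2 minimal and 0.04, -0.04 and 0.01 in swi1 minimal. They were -0.33 and -0.26 on replicates 1 and 2 of snf2 rich, with replicate 3 missing, and 0.02, -0.18 and -0.28 in swi1 rich. All 11 values lay between -0.33 and 0.04. HIS6 passed in none of its 3 tests against wild type on 8 arrays, nor in snf2 rich on 12 arrays (-0.30 ± 0.14, adjusted p = 0.164), with -0.21 ± 0.09 in snf2 minimal, adjusted p = 0.120, and -0.23 ± 0.09 in swi1 rich, adjusted p = 0.0822.

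HIS7 (YBR248C), the glutamine amidotransferase and cyclase that closes the imidazole ring and releases AICAR to the purine pathway, read -0.13, -0.11 and -0.42 in snf2 minimal and -0.10, -0.11 and -0.06 in swi1 minimal. Rich-medium values were 1.64, 0.39 and 0.40 in snf2 and 0.56, 0.46 and 0.43 in swi1. The 6 minimal arrays were all below 0 and the 6 rich arrays all above it. Of 4577 genes with at least 5 arrays in each medium, 3.26% had minimal arrays below rich arrays without overlap. The share of genes split at 0 was not counted. HIS7 rose by 0.40 ± 0.10 in snf2 rich, adjusted p = 0.0181, and by 0.44 ± 0.10 in swi1 rich, adjusted p = 0.0109. In minimal medium it did not pass, with -0.27 ± 0.10 in snf2, adjusted p = 0.0805, and -0.08 ± 0.10 in swi1, adjusted p = 0.575. Neither rich call held without replicate 2 or 3 of its group (adjusted p = 0.0983 and 0.110 in snf2 rich, 0.0781 and 0.0769 in swi1 rich). With all 12 arrays in 1 fit the swi1 rich call was lost (0.52 ± 0.23, adjusted p = 0.208), while HIS7 still passed in snf2 rich (0.85 ± 0.23, adjusted p = 0.036). The 2 HIS7 spots differed by 0.03 to 0.35, a median of 0.19.

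HIS3 (YOR202W), the imidazoleglycerol-phosphate dehydratase, had a value in 10 of the 12 arrays. Its values in snf2 minimal were -0.09, -0.64 and -0.83. In swi1 minimal it read 0.04 and -0.26 on replicates 1 and 2, in snf2 rich 0.07 and 0.30 on replicates 1 and 3, and in swi1 rich 0.92, 0.79 and 0.94. In rich medium the swi1 values lay above the snf2 values, of which replicate 2 was missing. The share of all genes separated in this way was not counted. HIS3 fell by 0.73 ± 0.11 in snf2 minimal, adjusted p = 0.00637, and rose by 0.86 ± 0.11 in swi1 rich, adjusted p = 0.00295, 1.82-fold higher. Since swi1 minimal and snf2 rich each lacked a HIS3 value, the fit of 8 arrays, which asked for both arrays of a group, did not test these groups or any difference between groups. The fit of all 12 arrays did, with 2 or 3 arrays a group. There the HIS3 effect in minimal minus that in rich medium was -1.14 ± 0.21 in swi1, adjusted p = 0.0298, and stood at -0.80 ± 0.21 in snf2, adjusted p = 0.101. Between snf2 and swi1, HIS3 differed by -0.70 ± 0.19 in rich medium, adjusted p = 0.384, and by -0.36 ± 0.19 in minimal medium, adjusted p = 0.999. Against wild type HIS3 stood at 0.28 ± 0.19 in snf2 rich, adjusted p = 0.331, and at -0.15 ± 0.19 in swi1 minimal, adjusted p = 0.702. The snf2 minimal call was lost without snf2 minimal replicate 3 (adjusted p = 0.0782) and with all 12 arrays (adjusted p = 0.141).

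HIS5 (YIL116W), the histidinol-phosphate aminotransferase, reached the highest values of any member. In rich medium it read 1.23, 1.32 and 4.04 in snf2 and 1.08, 0.98 and 0.74 in swi1. In minimal medium it read 0.13, -0.48 and -0.42 in snf2 and 0.15, -0.65 and -0.42 in swi1, so the 6 minimal arrays lay below the 6 rich arrays, with replicate 1 above 0 in both mutants. HIS5 rose by 2.68 ± 0.50 in snf2 rich, adjusted p = 0.00486. The size rests on replicate 3: without it the value was 1.32 ± 0.15, adjusted p = 0.00316. Because all 8 arrays share an estimate of the spread, that array also widened the error of HIS5 in the other groups. In swi1 rich HIS5 stood at 0.86 ± 0.51, adjusted p = 0.217, and at 0.86 ± 0.11, adjusted p = 0.00179, when snf2 rich replicate 3 was left out. By the same step HIS5 in minimal medium passed as lower, at -0.45 ± 0.11, adjusted p = 0.0237 in snf2 and -0.54 ± 0.11, adjusted p = 0.0137 in swi1, where all 8 arrays gave adjusted p = 0.554 and 0.483. This step was chosen after the HIS5 value had been seen.

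HIS2 (YFR025C), the histidinol phosphatase, read 0.50, 0.17 and -0.04 in snf2 minimal and 0.46, 0.08 and -0.09 in swi1 minimal. In rich medium the values were 1.62, 0.71 and 0.64 in snf2 and 0.27, 0.28 and 0.32 in swi1. All rich values were above 0. The snf2 values lay above the swi1 values there, but limma's test of that difference did not pass (adjusted p = 0.741). The share of all genes separated between mutants within rich medium was not counted. HIS2 rose by 0.68 ± 0.10 in snf2 rich, adjusted p = 0.00153, 1.60-fold higher, and by 0.30 ± 0.09 in swi1 rich, adjusted p = 0.0383. The swi1 rich call was lost without swi1 rich replicate 2 or 3 (adjusted p = 0.144 and 0.216), without snf2 rich replicate 3 (adjusted p = 0.0518), with arrays scaled to the same spread (adjusted p = 0.0753) and with all 12 arrays (adjusted p = 0.264). In minimal medium HIS2 did not pass in either mutant (0.07 ± 0.09, adjusted p = 0.627 in snf2, and -0.0030 ± 0.09, adjusted p = 0.986 in swi1).

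**Figure D2:**
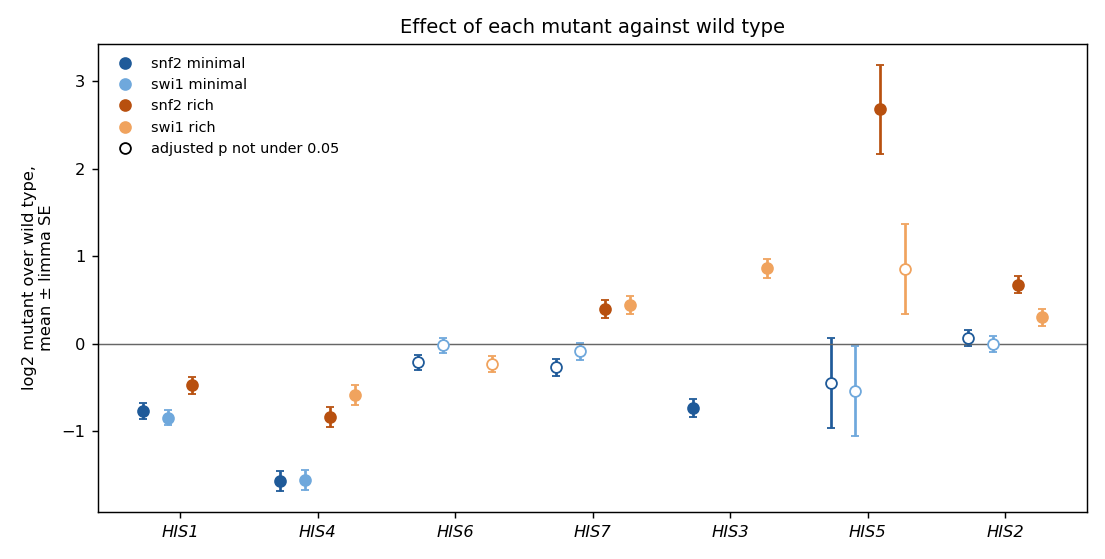
The mean log2 ratio of mutant over wild type of replicates 2 and 3 with limma's standard error, for each histidine gene and group with both arrays measured. Filled points had an adjusted p under 0.05. HIS4 stands at -1.57 and -1.56 in the minimal groups, while HIS7, HIS5 and HIS2 lie above 0 in both rich groups.

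Replicate 1 gave the same sign as the mean of the other arrays for 6 of 7 members in snf2 minimal, all but HIS5. In snf2 rich it did so for 6, all but HIS1, and in swi1 rich for 6, all but HIS6. In swi1 minimal only 3 of 7 had the same sign (HIS1, HIS4 and HIS7), and of the 4 others HIS2 and HIS6 averaged near 0 on replicates 2 and 3.

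The mutant effect on most members lay lower in minimal than in rich medium. Each side of this comparison is itself a ratio to wild type grown in the same medium, so the difference describes the mutant effect and not the level of the transcript. On replicates 2 and 3 the mean was lower in minimal medium for 6 of 7 members in both mutants, HIS6 being the exception, with single values for HIS1, HIS3 and HIS6 where an array was missing. Over all 12 arrays the minimal arrays lay below the rich arrays without overlap for HIS3, HIS4, HIS5 and HIS7, that is 4 of 7 members. Of the 4577 genes with at least 5 arrays in each medium, 3.26% were separated in this direction. The separation of HIS3 was narrow, with minimal values from -0.83 to 0.04 and rich values from 0.07 to 0.94.

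In snf2, limma called 4 of 5 members lower in minimal than in rich medium, where 3.71% of all genes were. HIS5 averaged -0.45 in minimal and 2.68 in rich medium, a difference of -3.13 ± 0.71, adjusted p = 0.0485, which was -1.77 ± 0.18, adjusted p = 0.00457 without snf2 rich replicate 3. HIS4 differed by -0.73 ± 0.16, adjusted p = 0.0445, HIS7 by -0.66 ± 0.14, adjusted p = 0.0435, and HIS2 by -0.61 ± 0.14, adjusted p = 0.0492. All 4 adjusted p-values were close to the threshold, and without snf2 minimal replicate 2 or 3 none passed. With all 12 arrays HIS5 passed (adjusted p = 0.0475), while HIS4, HIS7 and HIS2 did not (adjusted p = 0.0596, 0.0890 and 0.0988). HIS1 did not pass (-0.29 ± 0.13, adjusted p = 0.257).

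In swi1, 1 of 5 members passed, against 4.19% of all genes in that direction. HIS4 averaged -1.56 in minimal and -0.58 in rich medium, a difference of -0.97 ± 0.16, adjusted p = 0.0145. This call was lost without swi1 minimal replicate 2 or 3 or swi1 rich replicate 3 (adjusted p = 0.0618, 0.0501 and 0.0526). HIS7 differed by -0.53 ± 0.14, adjusted p = 0.0718, and HIS2 by -0.30 ± 0.13, adjusted p = 0.205. HIS5 differed by -1.40 ± 0.72, adjusted p = 0.265, and by -1.40 ± 0.15, adjusted p = 0.00385, when snf2 rich replicate 3 was left out. HIS6 stood on the other side, at 0.21 ± 0.13, adjusted p = 0.327.

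**Figure D3:**
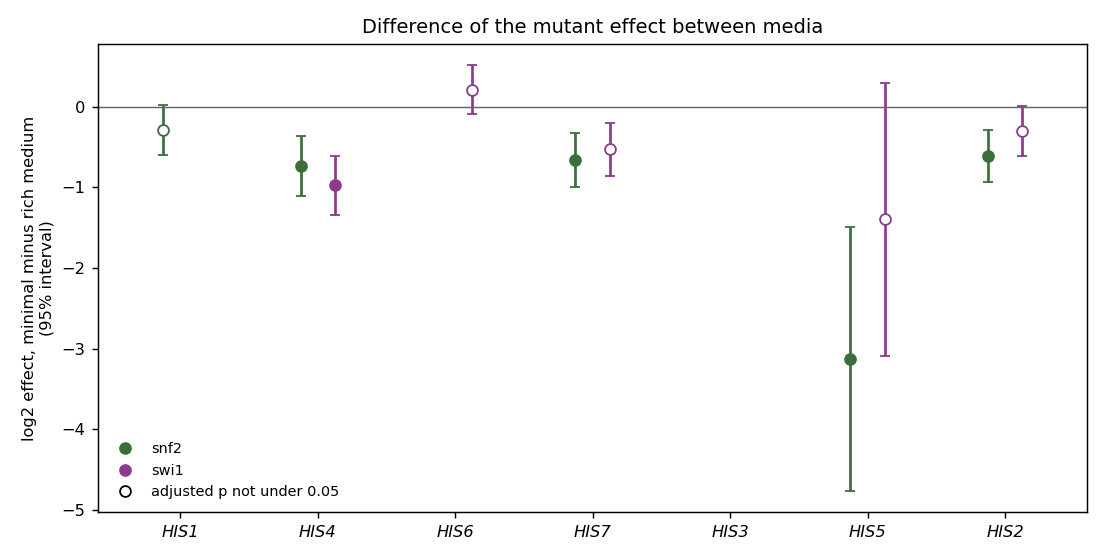
The log2 mutant effect in minimal medium minus that in rich medium, with 95% intervals, for each histidine gene measured on both arrays of each group. Filled points had an adjusted p under 0.05. All tested members but HIS6 lie below 0, and HIS5 in snf2 (-3.13) has the widest interval, from -4.76 to -1.49.

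The 2 mutants were then set against each other within a medium. In minimal medium limma called 0 of 6 members and 0 of 5123 genes, or 0% of all, while 280 genes had an unadjusted p under 0.05. HIS4 averaged -1.57 in snf2 and -1.56 in swi1, a difference of -0.0090 ± 0.16 with a 95% interval from -0.38 to 0.36. HIS1 differed by 0.08, with an interval from -0.22 to 0.37, and HIS7 by -0.18, from -0.51 to 0.14. HIS6 differed by -0.20, from -0.49 to 0.10, and HIS2 by 0.07, from -0.24 to 0.38. The interval of HIS5 ran from -1.61 to 1.79.

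In rich medium 0 of 4 members passed, and 1 of 3397 genes (0.0294%) did. HIS2 averaged 0.68 in snf2 and 0.30 in swi1, a difference of 0.38 ± 0.14 with an interval from 0.05 to 0.70, adjusted p = 0.741. HIS5 differed by 1.82 ± 0.71, adjusted p = 0.741, and by 0.46 ± 0.19, adjusted p = 0.863 without snf2 rich replicate 3. Without snf2 rich replicate 2 that difference was 3.18 and passed (adjusted p = 0.000303). HIS4 differed by -0.25, with an interval from -0.63 to 0.12, and HIS7 by -0.05, from -0.39 to 0.29. With 2 arrays a group these intervals leave room for differences of the size of many effects above.

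The genes next to HIS3 separated the mutants. MRM1 (YOR201C), a mitochondrial rRNA methyltransferase transcribed away from HIS3 on its left side, read -0.47, -0.45 and -0.62 in snf2 minimal and 0.77, 0.10 and 0.04 in swi1 minimal. In snf2 rich it read -0.71, -0.30 and -0.44, and in swi1 rich 0.00, 0.11 and 0.07. DED1 (YOR204W), an RNA helicase of translation initiation on the other side, read -0.93, -1.11 and -1.14 in snf2 minimal and 0.84, -0.27 and -0.69 in swi1 minimal. It read -1.10 and -1.43 on replicates 1 and 3 of snf2 rich, and -0.27, -0.35 and -0.20 in swi1 rich. For both neighbours every snf2 array lay below every swi1 array, as for 9 of 4654 genes (0.193%) with at least 5 arrays of each mutant, and for none of the other 12 neighbours or the 7 members. HIS3 itself overlapped between mutants over both media, from -0.83 to 0.30 in snf2 and from -0.26 to 0.94 in swi1.

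MRM1 fell by 0.53 ± 0.09 in snf2 minimal, adjusted p = 0.00459, and by 0.37 ± 0.09 in snf2 rich, adjusted p = 0.0169, and stood at 0.07 and 0.09 in swi1 minimal and rich. DED1 changed by -1.12 ± 0.12 in snf2 minimal, adjusted p = 0.00154, and by -0.48 ± 0.12 in swi1 minimal, adjusted p = 0.0313. The test of the difference between mutants did not pass for either: MRM1 differed by -0.60 ± 0.13 in minimal medium, adjusted p = 0.638, and by -0.46 ± 0.13 in rich medium, adjusted p = 0.649, and DED1 by -0.64 ± 0.17 in minimal medium, adjusted p = 0.837. The labels do not name any change at the HIS3 locus or any marker in these strains, and none was tested.

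**Figure D4:**
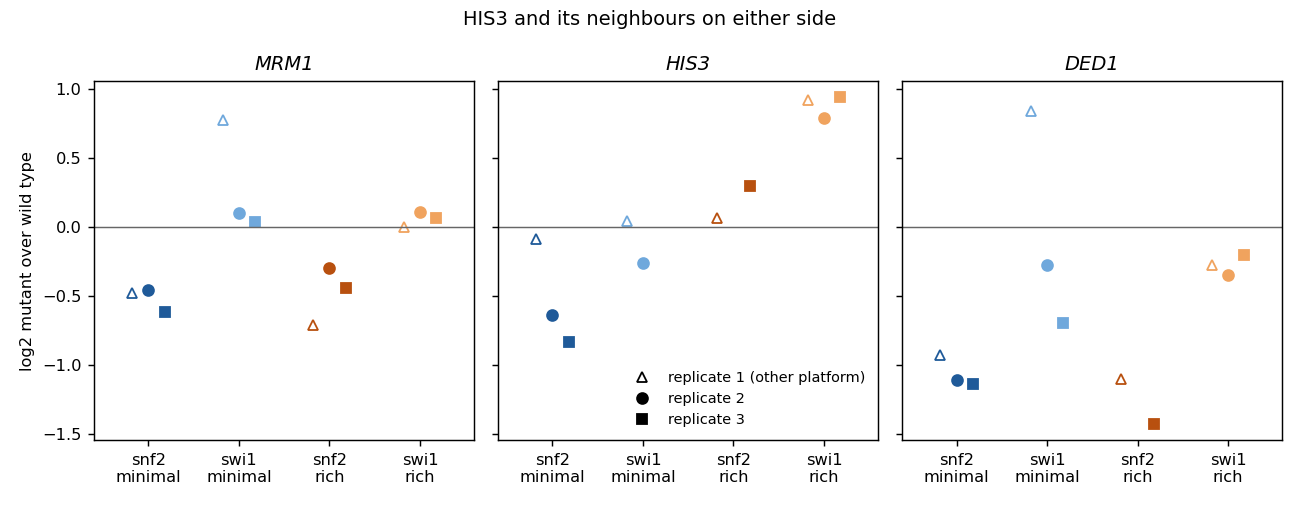
The log2 ratio of mutant over wild type of MRM1, HIS3 and DED1 on each array, with the array median at 0. All snf2 values of MRM1 lie at -0.30 or below and all swi1 values at 0 or above, and all snf2 values of DED1 lie at -0.93 or below.

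Of the 14 genes next to a member, 1 rose and 7 fell in snf2 minimal, with 12.8% and 16.4% of all genes called in these directions, and 1 rose and 5 fell in swi1 minimal, with 13.7% and 14.8%. LSB3, beside HIS2, read 0.55, 0.64 and 0.74 on replicates 1, 2 and 3 in snf2 minimal and 0.48, 0.75 and 0.67 in swi1 minimal. ENP1, beside HIS7, changed by -0.62 ± 0.09 and -0.39 ± 0.09 in these groups, with 0.16 and -0.02 on replicate 1. In swi1 rich ENP1 changed by -0.63 ± 0.09, where replicate 1 read 0.24. FCY2 (YER056C), the purine and cytosine permease beside HIS1, changed by -1.52 ± 0.11 in snf2 minimal and -1.31 ± 0.11 in swi1 minimal. FAF1 (YIL019W), a ribosome assembly factor beside HIS6, changed by -0.92 ± 0.14 and -1.04 ± 0.14 in the same groups, with 0.09 on snf2 minimal replicate 1. RRP7 (YCL031C), which is involved in rRNA processing and lies on the left of HIS4, changed by -0.39 ± 0.09 in snf2 minimal, and by -0.58 ± 0.09 and -0.49 ± 0.09 in snf2 and swi1 rich. On snf2 rich replicate 1 RRP7 read 1.95, opposite to the other arrays of that group. BIK1 (YCL029C), a microtubule-associated protein on the other side of HIS4, passed in no group. PRM5 (YIL117C), a pheromone-regulated membrane protein beside HIS5, rose by 1.04 ± 0.11 in snf2 rich and 1.23 ± 0.11 in swi1 rich, where replicate 1 read 0.89 and 0.0030. In minimal medium PRM5 stood at 0.09 and 0.26, so its effect also differed between media (-0.94 ± 0.15, adjusted p = 0.0144 in snf2, and -0.97 ± 0.15, adjusted p = 0.0125 in swi1).

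Transcripts of the known regulators moved little in minimal medium, where 1 of 8 fell in snf2 (GCN3, -0.36 ± 0.10, adjusted p = 0.0367, with 0.02 on replicate 1) and limma called 0 of 9 in swi1. The shares of all genes called lower there were 16.4% and 14.8%. GCN4 stood at -0.17 ± 0.17, adjusted p = 0.514 in snf2 minimal and at -0.09 ± 0.17, adjusted p = 0.742 in swi1 minimal. It rose by 0.56 ± 0.17 in snf2 rich, adjusted p = 0.0354, where replicate 1 read -0.52, and in swi1 rich it stood at -0.20 ± 0.17, adjusted p = 0.374. Gcn4 is controlled mainly by translation of its mRNA, which these arrays do not measure. BAS1 changed by -0.45 ± 0.11 in snf2 rich, adjusted p = 0.0125, and read 1.54 on replicate 1. ABF1, which encodes a general regulatory factor, fell in rich medium by 0.85 ± 0.13 in snf2, adjusted p = 0.00279, and by 1.15 ± 0.13 in swi1, adjusted p = 0.00115. Replicate 1 of ABF1 lay on the other side, at 0.24 in snf2 rich and 0.23 in swi1 rich. In all, 1 regulator rose and 4 of 7 fell in snf2 rich, and 0 rose and 2 of 9 fell in swi1 rich. Of all genes 19.5% rose and 22.2% fell in snf2 rich, and 19.1% rose and 21.7% fell in swi1 rich. HIP1, the histidine permease, and HTS1, the histidyl-tRNA synthetase, passed in none of the groups where they were tested.

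Genes that supply or use PRPP or take up AICAR, counted together with ADE3, were mostly lower. In minimal medium 6 of 9 fell in snf2 and 5 of 9 in swi1, with 16.4% and 14.8% of all genes lower. In both groups 0 rose, where 12.8% and 13.7% of all genes did. In rich medium 3 of 6 fell in snf2 and 4 of 6 in swi1, with 22.2% and 21.7% of all genes lower. ADE3, a one-carbon enzyme, rose in swi1 rich (0.66 ± 0.09, adjusted p = 0.00246), where 19.1% of all genes rose. ADE17, an AICAR transformylase, changed by -1.32 ± 0.10 and -1.21 ± 0.10 in snf2 and swi1 minimal and by -0.76 ± 0.10 and -0.58 ± 0.10 in snf2 and swi1 rich. Its paralog ADE16 stood between -0.11 and 0.16 in these groups and passed in none. ADE4, which uses PRPP in the first purine step, changed by -0.99 ± 0.14 in snf2 minimal and -0.61 ± 0.14 in swi1 minimal. Of the PRPP synthetases, PRS3 changed by -0.54 ± 0.11 in snf2 minimal and -0.48 ± 0.11 in swi1 minimal, where replicate 1 read -0.09 and -0.03.

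The genes of arginine, lysine, branched-chain and aromatic amino acid synthesis, which Gcn4 also controls in large part, split between media as well. In minimal medium 18 of 37 fell and 4 rose in snf2, and 14 of 36 fell and 3 rose in swi1, with medians of -0.30 and -0.28. Of all genes 16.4% fell and 12.8% rose in snf2 minimal, and 14.8% fell and 13.7% rose in swi1 minimal. In rich medium 17 of 31 rose and 6 fell in snf2, and 20 of 33 rose and 4 fell in swi1, with medians of 0.38 and 0.51. Of all genes 19.5% rose and 22.2% fell in snf2 rich, and 19.1% rose and 21.7% fell in swi1 rich. Their effect was lower in minimal than in rich medium for 12 of 31 in snf2 and 14 of 33 in swi1, with 3.71% and 4.19% of all genes lower, and higher for 2 and 3. The corresponding medians of the histidine genes were -0.45 and -0.31 in minimal and 0.40 and 0.37 in rich medium, over the 5 to 7 members tested.

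Over the 8 arrays, the members paired most closely were HIS1 and HIS2 (r = 0.95 over 7 arrays), HIS3 and HIS7 (r = 0.95 over 6), HIS3 and HIS4 (r = 0.94 over 6) and HIS4 and HIS7 (r = 0.91 over 8). HIS6 correlated negatively with each of the others (r from -0.81 to -0.29 over 5 to 7 arrays). These correlations describe arrays that fall into a minimal and a rich group and share the wild-type strain. The mean of HIS2, HIS4, HIS5 and HIS7, the members measured on all 8 arrays, was most like MET14, the adenylylsulfate kinase of sulfate assimilation (r = 0.99), followed by AIM17 (r = 0.99), ADH2, the glucose-repressed alcohol dehydrogenase (r = 0.99), MEP2, an ammonium permease (r = 0.98), and RIB5, riboflavin synthase (r = 0.98), among 3203 genes. On snf2 rich replicate 3, where HIS5 read 4.04, MEP2 read 3.55 and MET14 2.49. The members were averaged without scaling, so this HIS5 value weighs heavily in the mean and in the likeness to it. HIS4 alone was most like SUC2, the invertase gene (r = 0.99) though its ratio lay above 0 in rich medium where that of HIS4 did not, SAM2, an S-adenosylmethionine synthetase (r = 0.98), and MET6, methionine synthase (r = 0.98).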

How the data were processed

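Per the labels, arrays were read with ScanAlyze (version 2.24 for replicates 2 and 3) from total RNA of a mutant (channel 1) and of wild type FY2 (channel 2). The authors deposited 1 log2 ratio per probe and array in 3 tables, with numerator, centring and normalisation unstated. Base 2 was read from the values: of the values between -1 and 1 in the table of 8 arrays, 15.0% matched log2 of a quotient of small integers when rounded, and 6.34% did once shifted slightly. Base 10 matched 18.6%, and 14.5% once shifted, and base e 10.2% and 8.91%, so base 2 showed the largest drop on shifting but not the most matches. No clear excess of base 2 matches was seen in the replicate 1 tables (7.16% against 6.79% and 7.36% against 7.14%), for which base 2 is assumed. Probes were named from the platform annotation and the RefSeq gene table (all 5574 genes of the table of 8 arrays matched). Values were turned in sign, spots averaged per gene, and each array centred on its median over genes. limma 3.58.1 (R 4.3.3) was fitted to all genes of the table of 8 arrays, with 1 mean per group, 8 comparisons in all, each restricted to genes with a value on every array of the groups it compares, two-sided, with Benjamini-Hochberg adjustment over all genes tested. The fit was tested on simulated data with a change of 2 log2 units in 200 genes, which is larger than most member effects. Per comparison it recovered 98.5% to 100% of the changed genes, and 1.97% to 7.83% of the called genes were false. Smaller changes were not simulated. No intensities were used, so dim spots were not filtered, and the number of arrays limits the precision. Alternatives changed centring, scaling, arrays, genes, spots and blocking. The members and lists were chosen with earlier results of these data known. All 7 members are described, though not every member's value is given in every comparison, and likeness is by Pearson correlation. Of the other amino acid pathway genes only counts are given, for those with a named probe.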

Additional observations from a re-analysis of the deposited data

Results flagged for a closer look

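The mutant effect of 5 member comparisons differed between media by limma's test of the difference. In snf2 the effect in minimal minus that in rich medium was -0.73 ± 0.16 for HIS4 (adjusted p = 0.0445), -0.61 ± 0.14 for HIS2 (adjusted p = 0.0492), -0.66 ± 0.14 for HIS7 (adjusted p = 0.0435) and -3.13 ± 0.71 for HIS5 (adjusted p = 0.0485). In swi1 it was -0.97 ± 0.16 for HIS4 (adjusted p = 0.0145). All 4 snf2 differences missed the threshold without snf2 minimal replicate 2 or 3, and that of HIS4 in swi1 missed it without swi1 minimal replicate 2 or 3 or swi1 rich replicate 3 (adjusted p = 0.0618, 0.0501 and 0.0526). Groups of 3 arrays are too small to test for single arrays that stand apart.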

How the results depend on the processing

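Of 392 values of single members under an alternative, 323 kept direction and side of the threshold, 46 no longer passed, 5 newly passed and 18 changed sign. Replicate numbers did not pair the arrays (correlations of the replicate 2 minus 3 differences between groups from -0.03 to 0.02). With the replicate number as a block, the 4 calls between media in snf2 became 0 (adjusted p from 0.0545 to 0.0778) and no other count of member calls changed. Fitting all 12 arrays with the array type as random block, 1 member was called in each of snf2 minimal, swi1 minimal and swi1 rich, in place of 3, 2 and 4. The counts between media became 1 in snf2 and 2 in swi1 (HIS3 and HIS4), in place of 4 and 1. With only genes measured on all 8 arrays, 1 member passed in each minimal group, since HIS1 left both tests and HIS3 that of snf2 minimal. With arrays scaled to the same spread, 2 members passed between media in snf2. Leaving out single arrays gave 2 to 4 calls in snf2 minimal and 2 to 3 in swi1 minimal. It gave 3 in snf2 rich, 1 to 4 in swi1 rich, 0 to 1 between mutants in rich medium, and 0 to 2 between media in both snf2 and swi1. Leaving out snf2 rich replicate 3 from comparisons that do not involve it was added after the data were seen and gave 2 calls between media in swi1.

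The sign changes concerned values that passed no test. In swi1 minimal, HIS2 was 0.05 without centring and 0.27 on 12 arrays, HIS6 0.036 and 0.0268, and HIS7 0.0658 on 12 arrays and 0.0265 on its second spot. Between mutants, HIS4 in minimal medium was 0.0045 without centring and 0.011 on its first spot, and HIS7 in rich medium 0.33 on 12 arrays and 0.0315 on its first spot. Leaving out single arrays, HIS2 ranged from -0.0355 to 0.17 in snf2 minimal, from -0.087 to 0.081 in swi1 minimal and from -0.0325 to 0.17 between mutants in minimal medium. HIS4 ranged from -0.12 to 0.10 and HIS5 from -0.025 to 0.20 between mutants in minimal medium, and HIS6 from -0.043 to 0.0090 in swi1 minimal. The cause of these changes was not tested. Over all genes, the 12-array fit called 349 genes in snf2 minimal (1550 on 8 arrays), 344 in swi1 minimal (1526), 690 in snf2 rich (1543) and 435 in swi1 rich (2051). Leaving out an array of the group itself gave 685 to 770 in snf2 minimal, 586 to 703 in swi1 minimal, 1029 to 1197 in snf2 rich and 1054 to 1416 in swi1 rich. Without snf2 rich replicate 3, snf2 minimal had 1551, swi1 minimal 1526 and swi1 rich 2077. Without centring, snf2 minimal had 920 higher and 769 lower calls (678 and 872 with it). Swi1 minimal had 908 and 684 (736 and 790), snf2 rich 998 and 630 (721 and 822), and swi1 rich 1226 and 866 (958 and 1093). Leaving out single arrays also gave 0 to 18 genes between mutants in minimal medium and 7 to 66 in rich medium, in place of 0 and 1, and 77 to 229 between media in snf2 (178 on all 8 arrays) and 113 to 311 in swi1 (306). The 12-array fit gave 100 in swi1 between media.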
